A study of Mus musculus with 6 samples.

Results

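The 9 genes Dnmt1, Dnmt3a, Uhrf1, Tet1, Tet2, Tet3, Mbd1, Mbd2 and Mbd3, which write, read and remove DNA methylation, were examined in freshly isolated muscle stem cells (MuSCs) of control and Taf4asKO mice. They were chosen by gene symbol, and all 9 were found among the 22081 genes of the table. Bulk RNA-seq was made from sorted MuSCs, the cells from which adult muscle fibres regenerate, with 3 libraries per group and 10 ng of total RNA per library. According to the study, Taf4asKO mice carried floxed Taf4a alleles (official symbol Taf4, a subunit of the general transcription factor TFIID) and a Cre recombinase under Pax7 that is activated by tamoxifen, and received tamoxifen. The labels call the other group Control by genotype and WT in the titles. The study describes its control animals in general as littermates that also carried floxed Taf4a, either without Cre or with Cre and no stated tamoxifen, and which genotype each control library came from is not given in the sources used here. All mice were adults of both sexes on a C57BL/6 background. Deletion was driven by Pax7, so it concerned the Pax7-expressing cells of these mice.

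In vertebrates the methyl group is placed on cytosines that precede guanine. DNMT3A sets new marks, and DNMT1 copies them onto the new strand after replication, guided by UHRF1, which binds hemimethylated sites. Proteins of the MBD family recruit repressors to methylated DNA, although mammalian MBD3 itself binds methylated sites poorly and acts in the nucleosome remodelling and deacetylase complex NuRD, where it and MBD2 exclude each other. The TET dioxygenases oxidize 5-methylcytosine, with iron and 2-oxoglutarate, as the first step of its removal. In dividing cells, lack of maintenance dilutes the marks, whereas in resting cells such as quiescent MuSCs there is no replication to dilute them.

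The DNA upstream of the start sites is shown for the 5 genes that were lower in the libraries labelled Taf4asKO. The reason is that the study places TAF4A beside NF-Y, a factor known to bind the CCAAT box. Among its changed chromatin modifiers, the study's binding data placed both factors at Kansl2, Mbd3 and Prmt1. At the majority it found neither. Whether the matches marked here are bound was not tested. The sequences are the 250 bases before the RefSeq start site (build GRCm38.p6), in the direction of transcription. Capitals mark CCAAT or its reverse complement ATTGG. For genes with several start sites the one nearest to the gene's 5′ end in the table was taken. These were Dnmt1 and Dnmt3a, with 3 sites each, and Uhrf1, with 2. For Tet1 the single site lay 11794 bases inside the gene as the table gives it, and for Tet3 14714 bases. Which start sites these cells use was not tested.
Dnmt1 (chr9:20959889-20960138, minus strand): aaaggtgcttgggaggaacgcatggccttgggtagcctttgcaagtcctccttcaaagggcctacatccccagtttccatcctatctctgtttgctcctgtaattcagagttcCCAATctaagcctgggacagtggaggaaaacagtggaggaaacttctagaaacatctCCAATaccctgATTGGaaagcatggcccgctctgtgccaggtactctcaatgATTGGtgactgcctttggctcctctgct
Uhrf1 (chr17:56303087-56303336, plus strand): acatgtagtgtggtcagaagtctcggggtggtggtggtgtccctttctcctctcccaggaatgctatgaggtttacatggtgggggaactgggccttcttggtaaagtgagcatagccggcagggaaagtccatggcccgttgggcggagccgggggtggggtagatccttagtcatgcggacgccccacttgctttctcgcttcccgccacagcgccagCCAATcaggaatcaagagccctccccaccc
Dnmt3a (chr12:3806730-3806979, plus strand): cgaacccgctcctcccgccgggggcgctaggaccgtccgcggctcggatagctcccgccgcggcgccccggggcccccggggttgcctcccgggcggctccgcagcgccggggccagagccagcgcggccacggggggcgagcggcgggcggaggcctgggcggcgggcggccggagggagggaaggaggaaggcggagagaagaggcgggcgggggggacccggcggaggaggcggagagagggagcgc
Tet1 (chr10:62887325-62887574, minus strand): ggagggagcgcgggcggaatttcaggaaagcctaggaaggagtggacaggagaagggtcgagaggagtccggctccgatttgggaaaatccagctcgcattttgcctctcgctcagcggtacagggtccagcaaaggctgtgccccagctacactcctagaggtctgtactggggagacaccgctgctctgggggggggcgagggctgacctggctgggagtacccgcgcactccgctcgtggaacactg
Mbd3 (chr10:80399532-80399781, minus strand): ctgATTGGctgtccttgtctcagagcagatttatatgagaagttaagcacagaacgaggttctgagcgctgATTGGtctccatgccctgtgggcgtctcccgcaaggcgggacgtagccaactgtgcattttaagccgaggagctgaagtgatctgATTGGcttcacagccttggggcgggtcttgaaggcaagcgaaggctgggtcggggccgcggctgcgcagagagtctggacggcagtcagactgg

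The Dnmt1 sequence held 4 CCAAT matches, which began 137, 80, 69 and 28 bases before the start site. Mbd3 held 3, which began 247, 179 and 94 bases before it, and Uhrf1 held 1, at 30 bases. No match was found in the windows of Dnmt3a and Tet1. At the other start sites, Dnmt1 held 0 matches 6909 bases into the gene and 3 matches 7265 bases into it, Uhrf1 held 2 at 992 bases, and Dnmt3a again held 0 at both. Of the genes that did not pass the test, Tet3 held 1 and Tet2 none, and 7 of the 9 genes had a sequence in the reference. Among all 32851 windows of this length, 33.8% held at least 1 match, 2.79% at least 3 and 0.84% at least 4. The windows also differed in CpG content, with 2 CpG in the Dnmt1 window shown (7 and 26 at its other sites), 10 in Uhrf1, 14 in Mbd3, 15 in Tet1 and 38 in Dnmt3a, against a median of 6 over all windows.

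Values are the deposited normalized counts, that is, reads per gene divided by 1 size factor per library. The totals lay between 12338676 and 14551732, and the reads behind them were estimated at 10.6 to 17.6 M (mega) per library. To pass the threshold a gene needed an adjusted p below 0.05 in limma and a change of at least 1.3-fold. Fold changes are on the log2(value + 1) scale. The labels name separate samples without naming their animals, so p-values measure the spread between these samples. Taf4 itself had 478 to 613 normalized counts in control and 565 to 631 in the libraries labelled Taf4asKO. Its gene total also counts exons outside the deleted pair and did not check the labels, so directions refer to the groups as labelled. Kansl2, the target the study follows, fell by 0.62 on the log2 scale (limma adjusted p 0.0352), a call that was lost without any 1 of the Taf4asKO libraries. Control replicate 2 stood apart by its proliferation genes. The 9 MuSC markers (Pax7, Myf5 and others) summed to 39852 to 42677 in control and 39966 to 41823 under the Taf4asKO label. These sums do not show equal marker levels, since 4 of the 9 were lower and 2 higher past the threshold. Sdc4, 1 of the higher, had a mean of 5654.7 in control and 10502.0 under the Taf4asKO label. Pax7 was at 12082, 12244 and 13007 in control and 10669, 10363 and 11164 under the Taf4asKO label (-0.21, limma adjusted p 0.161). Pecam1 and Ly6a, whose products CD31 and SCA1 the study used to sort out other cells, did not exceed 142 and 14 in any library.

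Of the 9 genes, 5 were lower past the threshold and 0 higher, while 12.6% of the 18562 genes tested passed, 6.71% lower and 5.93% higher. At an unadjusted p under 0.05, 6 were lower and 2 higher, against 28.8% of all genes in either direction, and limma-voom on recovered reads also called 5 lower and 0 higher. The lower genes were Dnmt1, Uhrf1, Dnmt3a, Tet1 and Mbd3, with at least 1 from each of the 3 classes. Tet2, Tet3, Mbd1 and Mbd2 did not pass. The number was 1 without Taf4asKO replicate 2 or 3, when Tet1 was left, and 3 without control replicate 1 or Taf4asKO replicate 1. Without control replicate 2, 4 were lower and 1 higher. The median log2 fold change of the 9 was -0.48, against 0.004 over all genes tested. In 6 of the 9 genes the groups did not overlap, as in 33.0% of all genes tested. Dnmt1, Dnmt3a, Tet1 and Mbd3 are also shown by the study as lower chromatin modifiers, chosen on these libraries, so their direction is not independent evidence here. When replicate number entered as a block, the same 5 genes passed, as did 18.1% of all genes, 8.98% lower and 9.09% higher.

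**Figure D1:**
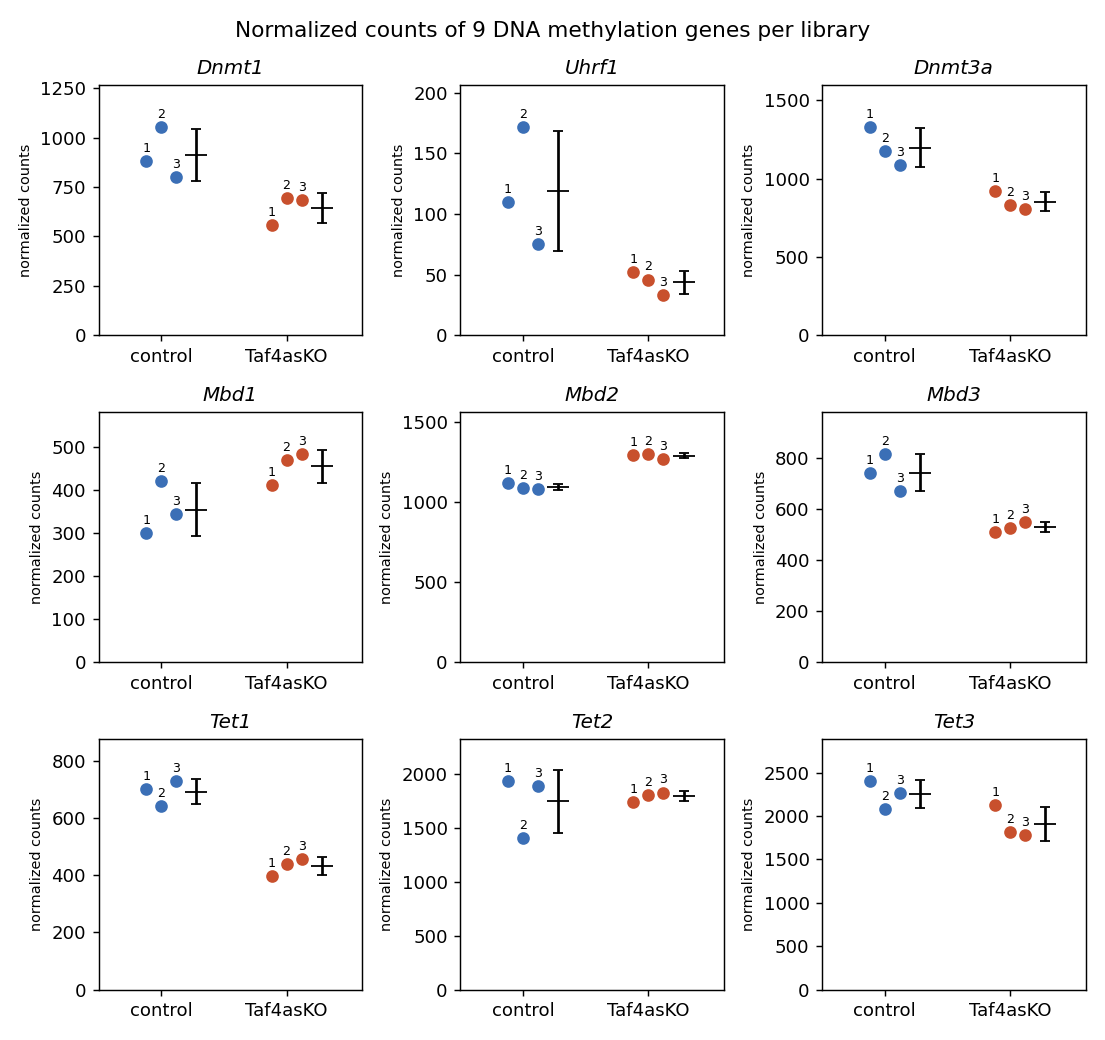
Normalized counts (y axis, from 0) of each of the 9 genes in the 3 control (blue) and 3 Taf4asKO (orange) libraries, numbered by replicate, with mean and SD beside them. Dnmt1, Uhrf1, Dnmt3a, Mbd3 and Tet1 lay lower in every Taf4asKO library than in every control library, and Mbd2 lay higher.

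**Figure D2:**
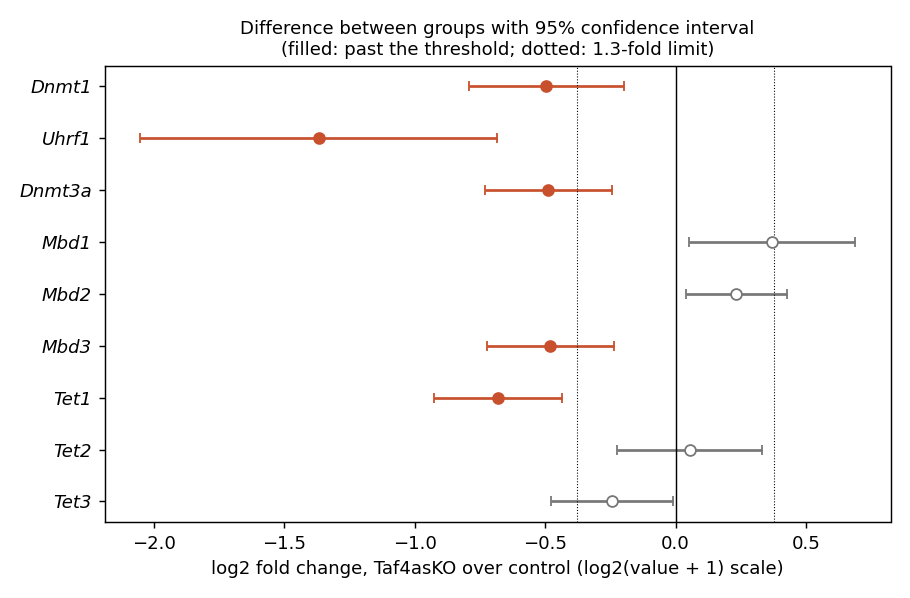
Log2 fold change of Taf4asKO over control (x axis) for the 9 genes, with the 95% confidence interval from limma. Filled points passed the threshold, open points did not, and dotted lines mark the 1.3-fold limit.

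The maintenance genes came first. Dnmt1 (ENSMUSG00000004099, mm10 chromosome 9, 20907209 to 20959888, minus strand), the maintenance methyltransferase, stood at 879, 1055 and 800 normalized counts in control replicates 1 to 3. Those labelled Taf4asKO held 558, 692 and 684. All 3 of these lay below the lowest control. Mean levels were 911.3 ± 130.5 and 644.7 ± 75.2 (SD, n = 3). Dnmt1 thus fell by 0.50 on the log2 scale (SE 0.13, limma adjusted p 0.0367). The call rested on nearly every library. It was kept without control replicate 3 and lost without any other library: control replicate 1 (limma adjusted p 0.0664), control replicate 2 (0.0569), or Taf4asKO replicate 1 (0.127), 2 (0.0895) or 3 (0.0889). With GC and exon length adjusted it was -0.44 (limma adjusted p 0.0548).

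Uhrf1 (ENSMUSG00000001228, chromosome 17, 56303321 to 56323486, plus strand), the reader of hemimethylated DNA that brings DNMT1 to new strands, was the member with the largest fold change. Control libraries gave 110, 172 and 75 normalized counts, and those labelled Taf4asKO gave 52, 46 and 33. The groups did not overlap, although control values were spread more widely than those of any other member relative to their mean. Mean levels were 119.0 ± 49.1 and 43.7 ± 9.71 (SD, n = 3). On the log2 scale the change was -1.37 ± 0.31 (SE), with a limma adjusted p of 0.0176. It was also the scarcest member, with an estimated 43 to 153 reads per library. The call was lost without Taf4asKO replicate 2 (limma adjusted p 0.0619) or 3 (0.0796), and without control replicate 2 the log2 fold change was -1.06.

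Uhrf1 and Dnmt1 are known as genes of cycling cells, and proliferation genes moved with them. Mki67, the Ki-67 proliferation marker, stood at 1087, 2232 and 727 normalized counts in control against 250, 427 and 189. Control replicate 2 held the highest Mki67, Uhrf1 and Dnmt1 values of all 6 libraries. Of 20 S phase and proliferation genes, 9 were lower past the threshold, 11 with the replicate block, and 0 higher in either fit. Over all genes tested 6.71% were lower and 5.93% higher, and 8.98% and 9.09% with the block. The 20 genes summed to 3974 to 7261 in control and 2342 to 2981 under the Taf4asKO label. Mki67 had a log2 fold change of -2.15, Cdk1 -2.07, E2f2 -2.05 and Top2a -1.72 (limma adjusted p 0.00602, 0.0252, 0.00016 and 0.0121). Other genes of the list did not pass, such as the replicative helicase subunit Mcm4 (0.04, adjusted p 0.86) and Rrm1 (0.01, 0.979), a subunit of ribonucleotide reductase. Uhrf1 per Mki67 was 0.0938 ± 0.0145 in control and 0.163 ± 0.0511 in Taf4asKO libraries (SD, n = 3, exact permutation test, two-sided, p = 0.1, the smallest that 3 against 3 can give). Without control replicate 2, 7 of the 20 genes were lower, without Taf4asKO replicate 3, 3 were, and without Taf4asKO replicate 1, 5 were, and Cdk1 lost its call in each of these fits. The part of proliferation in the Uhrf1 and Dnmt1 values was not tested. In bulk samples fewer cycling cells and less RNA per cell cannot be told apart.

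**Figure D3:**
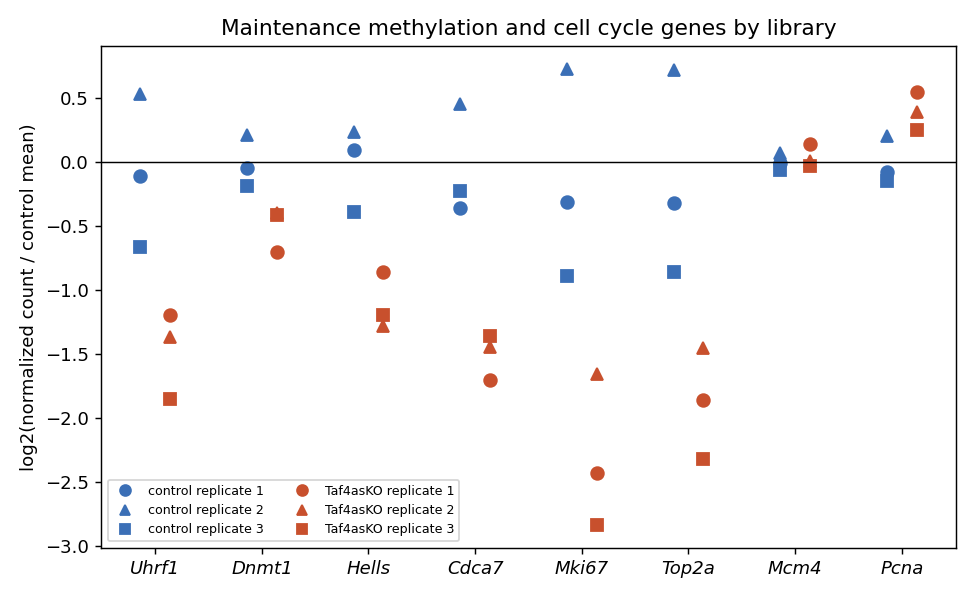
Log2 of each library's normalized count over the control mean (y axis) for 4 genes of maintenance methylation and 4 cell cycle genes, by library (symbol) and group (colour). Uhrf1, Dnmt1, Hells, Cdca7, Mki67 and Top2a were lower in every Taf4asKO library than in every control library. Control replicate 2 was the highest control for each of the 8 genes, and Mcm4 and Pcna were not lower.

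Among writer partners, 4 genes passed as lower, Cdca7l, Cdca7, Hells and Trim28. Cdca7l had 80.7 ± 18.4 normalized counts in control (SD, n = 3) and 21, 28 and 26 under the Taf4asKO label (-1.64, limma adjusted p 0.0033). Cdca7, which directs the remodeller HELLS to chromatin, stood at 104, 182 and 114 in control and 41, 49 and 52 under the Taf4asKO label (-1.44, limma adjusted p 0.00475). Hells itself stood at 161, 177 and 115 against 83, 62 and 66 (-1.08, limma adjusted p 0.00989). Each of the 3 genes had no overlap between groups. Trim28, a corepressor that protects methylation at imprinted loci and retroelements, fell from 2332.7 ± 239 to 1561.7 ± 204.9 normalized counts (SD, n = 3, -0.58, limma adjusted p 0.0124). Of 13 listed partners 10 were tested, with a median of -0.45. Past the threshold 4 were lower and 0 higher, against 6.71% and 5.93% of all genes. Without Taf4asKO replicate 2 or 3 only 2 were lower, and Hells (adjusted p 0.0561 and 0.05) and Trim28 (0.072 and 0.0699) no longer passed. Usp7, which stabilizes UHRF1 and DNMT1, had 2719.7 ± 92.4 and 2753.0 ± 140.3 (0.02, adjusted p 0.927, interval -0.18 to 0.21). Its value was -0.02 under upper-quartile scaling. Uhrf2, the paralog of Uhrf1, had 688.7 ± 12.7 and 804.3 ± 52.8 (0.22, limma adjusted p 0.168), so Uhrf1 per Uhrf2 was 0.172 ± 0.0681 in control and 0.0544 ± 0.0127 in Taf4asKO libraries. Pcna, the replication clamp, did not pass (0.40, limma adjusted p 0.0854) but was higher past the threshold with the block (0.045).

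Of the de novo enzymes, Dnmt3a (ENSMUSG00000020661, chromosome 12, 3807030 to 3914443, plus strand) reached 1332, 1177 and 1087 normalized counts in control. Libraries labelled Taf4asKO reached 922, 830 and 806. The highest of these was below the lowest control. Mean levels were 1198.7 ± 123.9 and 852.7 ± 61.2 (SD, n = 3), so Dnmt3a fell by 0.49 on the log2 scale (SE 0.11, limma adjusted p 0.0177). The call was lost without control replicate 1 (limma adjusted p 0.0569) or Taf4asKO replicate 2 (0.0901) or 3 (0.0919). Its exons share 133 bases with Dnmt3aos on the opposite strand, which had 3 to 15 normalized counts per library, and reads of this stretch could not be attributed. Dnmt3b, the second de novo enzyme, had 94.0 ± 10.5 and 86.7 ± 13.3 (-0.12, adjusted p 0.727, interval -0.55 to 0.31). Dnmt1 per Dnmt3a was 0.764 ± 0.121 in control and 0.762 ± 0.136 in Taf4asKO libraries (exact permutation test, two-sided, p = 1.0).

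The 3 Tet genes behaved unequally. Tet1 (ENSMUSG00000047146, chromosome 10, 62804570 to 62899118, minus strand) was at 702, 644 and 730 normalized counts in control libraries and at 396, 440 and 458 in those labelled Taf4asKO, with no overlap. Mean levels were 692.0 ± 43.9 and 431.3 ± 31.9 (SD, n = 3). The log2 fold change of -0.68 had an SE of 0.11 and a limma adjusted p of 0.0039. It was the member with the smallest adjusted p, and it passed in all 19 alternatives run, with log2 fold changes from -0.78 to -0.62. Tet2 (ENSMUSG00000040943, chromosome 3, 133463679 to 133544390, minus strand) was at 1939, 1413 and 1895 in control libraries and at 1748, 1813 and 1832 in the other group. The latter lay inside the control range. The change of 0.05 on the log2 scale (limma adjusted p 0.82) had a 95% interval of -0.23 to 0.33. It was -0.021 with GC and exon length adjusted, and -0.093 without control replicate 2. Tet3 (ENSMUSG00000034832, chromosome 6, 83362373 to 83456392, minus strand) was at 2404, 2086 and 2271 in control libraries and at 2131, 1815 and 1778 in the other group. These ranges overlapped. At -0.24 on the log2 scale (95% interval -0.48 to -0.01, limma adjusted p 0.159) Tet3 did not pass.

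Counted per kb of exon, Tet1 made up 14.9%, 16.6% and 16.0% of the summed Tet level in control libraries, against 9.97%, 11.6% and 12.1%. The Tet2 share was 36.4% ± 2.56 and 42.9% ± 2.21, and the Tet3 share was 47.8% ± 1.98 and 45.9% ± 3.33 (SD, n = 3). The shares of Tet1 and Tet2 did not overlap between groups (exact permutation test, two-sided, p = 0.1 each, the smallest possible), and those of Tet3 did (p = 0.4).

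Among the MBD genes, Mbd3 fell while Mbd1 and Mbd2 had values above 0 that did not pass. Mbd3 (ENSMUSG00000035478, chromosome 10, 80392539 to 80399550, minus strand) gave 740, 816 and 670 normalized counts in control libraries and 512, 527 and 551 in those labelled Taf4asKO. Every one of the latter was below every control. Mbd3 thus fell by 0.48 on the log2 scale (SE 0.11, limma adjusted p 0.0188). With GC and exon length adjusted the value was -0.29 and no longer passed (limma adjusted p 0.163, and 0.107 with the replicate block), and at 62.9% GC its transcript was the most GC-rich of the 9. The call was also lost without Taf4asKO replicate 1 (0.0687), 2 (0.0885) or 3 (0.0669).

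Mbd2 (ENSMUSG00000024513, chromosome 18, 70568189 to 70626131, plus strand) was the steadiest member within groups. Its values were 1120, 1091 and 1083 normalized counts in control libraries and 1298, 1303 and 1272 in those labelled Taf4asKO. The groups did not overlap, but a log2 fold change of 0.23 (95% interval 0.04 to 0.43, limma adjusted p 0.109) did not pass and was below the fold limit. Mbd1 (ENSMUSG00000024561, chromosome 18, 74268175 to 74282732, plus strand), a reader that also binds unmethylated CpG through a CXXC domain, ran at 300, 420 and 344 in control libraries and at 412, 469 and 484 in the other group. The values overlapped through control replicate 2. On the log2 scale Mbd1 differed by 0.37 (SE 0.14, limma adjusted p 0.121). It passed as higher only without control replicate 2 (0.50, limma adjusted p 0.025). With the block its adjusted p was 0.0495, with the same fold change, just short of the fold limit. Mbd3 per Mbd2 within a library was 0.661, 0.748 and 0.619 in control libraries against 0.394, 0.405 and 0.433, without overlap (exact permutation test, two-sided, p = 0.1, the smallest possible).

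The order of levels was read per kb of exon, as normalized counts per kb in the control libraries. Mbd3 (373.4 ± 36.8) and Mbd2 (341.6 ± 6.06) were highest and their ranges overlapped. Tet3 (135.0 ± 9.57), Dnmt1 (123.5 ± 17.7) and Tet2 (103.7 ± 17.3) followed, each overlapping its neighbour. Below them stood Dnmt3a (72.0 ± 7.45), then Mbd1 (52.9 ± 9.06) and Tet1 (44.8 ± 2.84), which overlapped, and last Uhrf1 (27.9 ± 11.5). Under the Taf4asKO label the order differed at 3 places. Mbd2 (401.7 ± 5.18) stood above Mbd3 (266.7 ± 9.90), and Mbd1 (67.9 ± 5.67) above Dnmt3a (51.2 ± 3.68), both without overlap. Tet2 (106.6 ± 2.61) stood above Dnmt1 (87.4 ± 10.2), also without overlap. Uhrf1 was again last, at 10.3 ± 2.28.

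**Figure D4:**
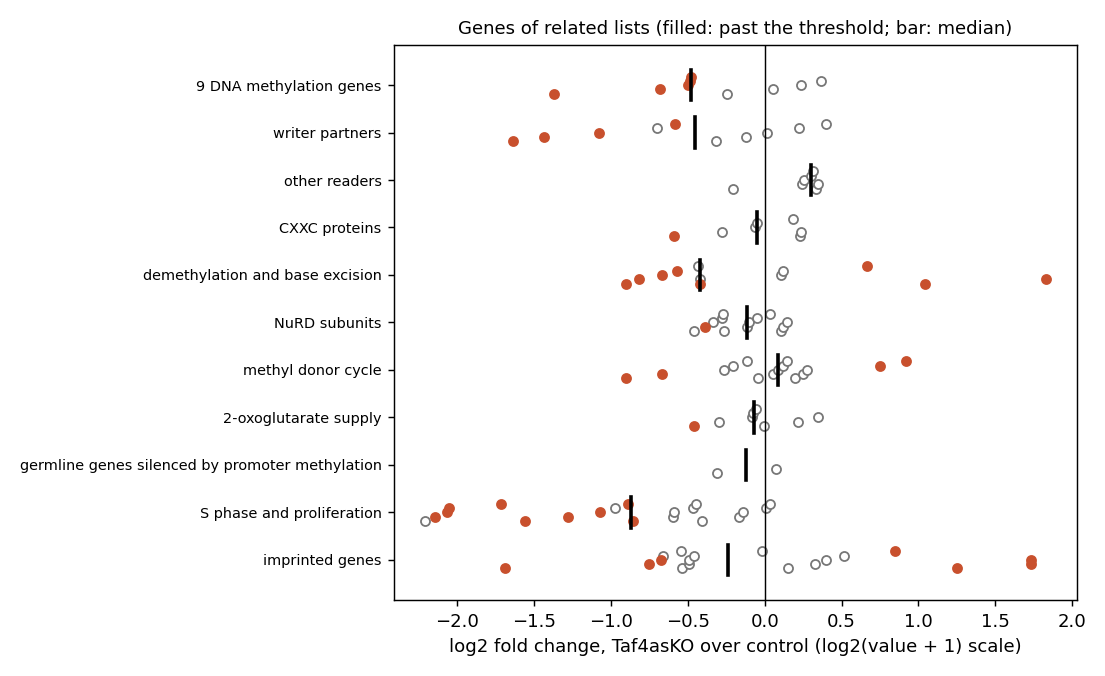
Log2 fold change of Taf4asKO over control (x axis) of each tested gene in the 9 DNA methylation genes and 10 related lists (rows); filled points passed the threshold and black bars are medians. The other readers sat mostly above 0 with 0 past the threshold, while 5 genes of demethylation and base excision fell and 3 of the same list rose.

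Related genes were read from 10 lists chosen by role, with 112 genes tested, of which 26 were lower and 9 higher past the threshold (median -0.13), against 6.71% and 5.93% of all genes tested. Without Taf4asKO replicate 2 or 3, 22 and 17 passed. With the replicate block 33 were lower and 11 higher, against 8.98% and 9.09%. Of the 7 other readers 0 passed in either of these fits or in limma-voom, while 6 had values above 0 and 4 had an unadjusted p under 0.05. Mbd6 had 1009.7 ± 35.5 and 1257.3 ± 28.4 normalized counts (0.32, limma adjusted p 0.0443), which met the p limit and was below the 1.3-fold limit. It passed with GC and exon length adjusted (0.47, limma adjusted p 0.0155), and Zbtb33 without control replicate 2 (0.40, 0.04).

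Of 12 genes of active demethylation and base excision, 5 were lower and 3 higher past the threshold, against 6.71% and 5.93% of all genes. The glycosylase genes Smug1 (from 236.3 ± 25.1 to 127.0 ± 25.9 normalized counts, log2 fold change -0.90, limma adjusted p 0.00964) and Neil1 (from 124, 149 and 142 to 78, 81 and 75, -0.82, 0.0113) fell. The repair genes Parp1 (-0.67, adjusted p 0.00751), Lig3 (-0.57, 0.0138) and Xrcc1 (-0.42, 0.0315), which act together on single-strand breaks, also fell. Without Taf4asKO replicate 3 only 1 of the 5 was lower past the threshold, and 3 were without Taf4asKO replicate 1 or 2, while the higher genes numbered 3 in each of these fits. Xrcc1 was also lost with GC and exon length adjusted (-0.31, adjusted p 0.115) and without either control replicate 1 or 3. Tdg, the glycosylase that removes the products of TET oxidation, was at 169, 177 and 135 against 127, 118 and 109. This did not pass (-0.43, limma adjusted p 0.116). The genes that rose were Gadd45g, which went from 305, 327 and 324 normalized counts to 1456, 1037 and 963 (1.83, limma adjusted p 0.000125), Gadd45b (1.04, 0.00167) and Ogt (0.66, 0.00451). Gadd45a, the third of these stress-induced genes linked to active demethylation, had a log2 fold change of 0.11 and did not pass (limma adjusted p 0.728). OGT is a partner of TET proteins.

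Among 13 subunits of NuRD, the complex of Mbd2 and Mbd3, 1 was lower and 0 higher past the threshold, with a median of -0.11. This was Mta1 (from 2272.7 ± 194.0 to 1731.7 ± 107.0 normalized counts, -0.39, limma adjusted p 0.0299). Mta1 no longer passed with GC and exon length adjusted (-0.28, 0.115), without control replicate 1 or 2, or without any 1 of the Taf4asKO libraries. This share, 1 of 13, lay near the 6.71% of all genes that were lower. The remodeller Chd3 did not pass (-0.46, limma adjusted p 0.118) but was lower past the threshold with the block (0.0124) and without control replicate 1 (-0.62, 0.0477). Chd4, the most abundant subunit, had a log2 fold change of -0.10 (limma adjusted p 0.63, interval -0.37 to 0.17). Of 7 CXXC proteins, which bind unmethylated CpG, 1 was lower and 0 higher past the threshold, against 6.71% and 5.93% of all genes. This was Kdm2b (-0.59, limma adjusted p 0.0215), while Kmt2a had 0.24 (0.154). Kdm2b lost its call without control replicate 1 (adjusted p 0.0508) or Taf4asKO replicate 2 (0.0596) or 3 (0.101).

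Of 15 methyl donor genes tested, 2 rose and 2 fell past the threshold, against 5.93% and 6.71% of all genes. Mat2a, which makes S-adenosylmethionine, rose from 2777, 2541 and 3046 normalized counts to levels of 5710, 4919 and 5208 (0.92, limma adjusted p 0.000657). The folate cycle genes Shmt1 (-0.90, adjusted p 0.00247) and Mthfd1l (-0.67, 0.0225) fell. Mthfd1l lost its call without control replicate 3 or Taf4asKO replicate 1 or 2. Among 8 genes of 2-oxoglutarate supply and removal, 1 was lower past the threshold, against 6.71% of all genes, and 7 did not pass. This was the mitochondrial isocitrate dehydrogenase Idh2, which fell from 1789.7 ± 142.6 to 1299.3 ± 18.2 (-0.46, limma adjusted p 0.012). The Idh2 call was lost without Taf4asKO replicate 2 (adjusted p 0.0619) or 3 (0.0629), and with GC and exon length adjusted its change of -0.36 was below the fold limit. Ogdh, the most abundant of them, had -0.08 (0.707).

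Genes known as silenced or imprinted by methylation were read beside these. Of 16 germline genes known to be silenced by promoter methylation, 12 were not analysed here and 2 were tested, neither past the threshold nor at an unadjusted p under 0.05. Taf7l stood at 138, 106 and 159 normalized counts against 88, 126 and 110 (-0.31, limma adjusted p 0.358) and Brdt had a log2 fold change of 0.07 (0.868). Neither was silent in control, where Brdt had 79, 135 and 128, so these 2 genes could not show whether silencing was kept. Sycp3 (1 to 4 per library) and Tdrd1 (0 to 7) were below the mean of 5 needed for testing. Of 18 imprinted genes tested, 4 rose and 3 fell, against 5.93% and 6.71% of all genes. With the block 5 rose and 7 fell, against 9.09% and 8.98%. The largest of these changes were in H19 (1.73, limma adjusted p 0.000499), Peg10 (1.73, 0.000111), Cdkn1c (-1.69, 0.039) and Igf2 (1.25, 0.00153), and Peg3, the most abundant, had -0.49 (0.0618). Peg3 was lower past the threshold with the block (adjusted p 0.0148) and without control replicate 2 (0.0123). Without control replicate 2, 6 rose and 5 fell, and the value of Cdkn1c was -1.07, smaller in size than that of Igf2, since control replicate 2 held 6177 normalized counts of it against 2297 and 1284 in the other controls. Without control replicate 1 or any 1 of the Taf4asKO libraries 1 fell, and Cdkn1c lost its call. It also lost it with GC and exon length adjusted (-1.52, adjusted p 0.0591) and with the fibro-adipogenic marker covariate, under which 1 imprinted gene fell and 4 rose.

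By the root mean square difference of log2 values centred on each gene's mean over the 6 libraries, the 3 genes closest to Dnmt1 among 10584 were Pfdn1 (0.0525), Sh3bgr (0.054) and Trmt61b (0.0584). None of these 3 passed the threshold.

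Some markers of other cell types differed between the groups. The 5 Schwann cell markers summed to 1175 to 2907 normalized counts in control and to 3513 to 4271 under the Taf4asKO label, and 4 of the 5 rose past the threshold. The 5 smooth muscle and pericyte markers summed to 8642 to 13631 and 13611 to 15906, with 2 past the threshold, and the 6 endothelial markers to 229 to 535 and 551 to 895, with 0. Of 7 immune markers 3 were tested and 0 passed (422 to 538 and 666 to 924), and of 7 myofibre markers 0 passed (1228 to 3852 and 2208 to 2810). The 8 fibro-adipogenic markers summed to 55604 to 81847 and 33884 to 56229, with Col3a1 and Dpt lower past the threshold, while the median of the list was 0.83. With the block 5 of these 8 were higher, among them Pdgfra and Col1a1, as were 3 endothelial markers (Cdh5, Kdr and Esam), 1 immune marker (Lyz2), all 5 Schwann cell markers and 4 smooth muscle and pericyte markers. No marker analysed was at 0 in any library. With the mean fibro-adipogenic marker level as a covariate the same number of the 9 genes passed, 5. The part of the other cell types in these results was not tested.

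**Figure D5:**
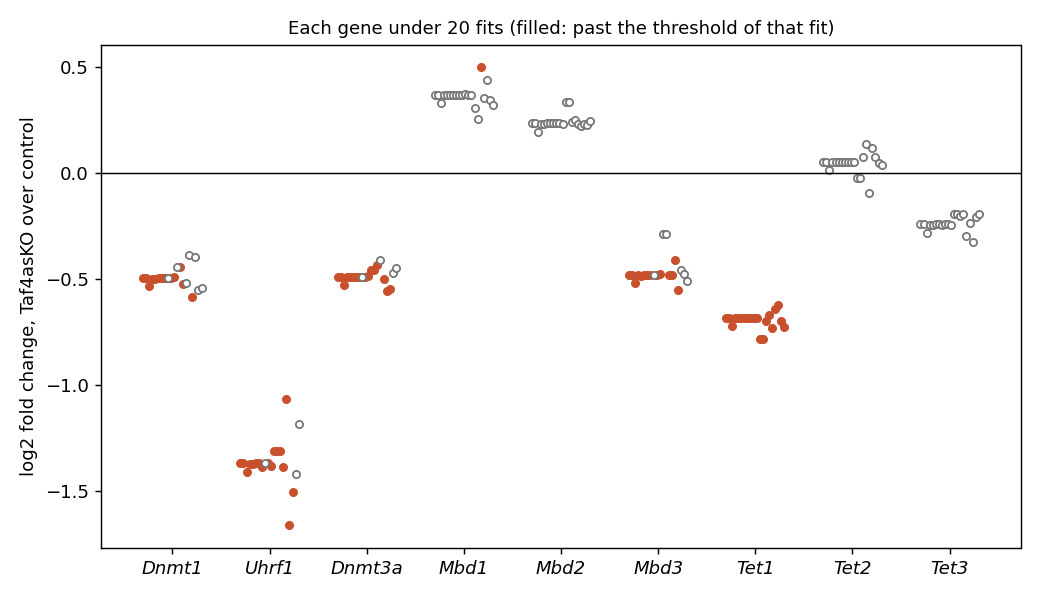
Log2 fold change of Taf4asKO over control (y axis) of the 9 genes in 20 fits, the one reported and 19 alternatives side by side. Filled points passed the threshold of that fit: Tet1 passed in all 20, and Tet2, Tet3 and Mbd2 in 0.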

How the data were processed

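The study's methods and the submitters' processing notes name Trimmomatic 0.39, STAR 2.6.0c on mm10, featureCounts 1.6.0 and DESeq2 1.14.1. Multi-mapping reads and reads over several genes were removed by the authors, and strand use in counting is not given in the sources used here. The deposited values are scores: counts normalized by the authors, in whole numbers. Some whole numbers up to 60 were unused in 3 of the 6 libraries, as rounding after division by a size factor under 1 leaves them.

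Genes with a mean of at least 5 were tested with limma 3.58.1 (R 4.3.3, intensity trend, two-sided, no covariate) on log2(value + 1), with Benjamini-Hochberg adjustment over 18562 genes, and the test was checked on simulated data. Limits of 0.05 and 1.3-fold follow the study. For the block, replicate numbers from the titles were taken as pairs, although no label states that libraries with the same number belong together. Libraries that share a number deviated together from their groups, with correlations across genes of 0.235, 0.126 and 0.15. These correlations come from the same values as the block fits, so they are no independent support for the pairing or for the smaller p-values. Exon length, GC content and overlaps came from GENCODE M21, in which 99.82% of genes were found. The 9 genes and the lists were chosen with earlier results of these data known. The genes named were the 9, and from each list the 4 largest changes past the threshold and the most abundant gene, with Kansl2, Taf4 and the 3 genes closest to Dnmt1, and some of these are not reported here. Other genes, such as Mcm4, Rrm1, Uhrf2, Dnmt3b, Pcna, Tdg, Parp1, Lig3, Xrcc1, Mbd6, Zbtb33, Chd3, Brdt, Gadd45a and the markers, were named after their values were seen. Alternatives were the replicate block, 3 scalings, 2 filters, a pseudocount of 0.1, other limits, limma-voom on reads recovered from the spacing of values, spline adjustment for GC and exon length alone or with the block, a marker covariate and leaving out each library. Figures were drawn with matplotlib 3.10.9.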

Additional observations from a re-analysis of the deposited data

How the results depend on the processing

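Of the 9 genes, 5 passed (5 lower, 0 higher). With the replicate block, each scaling, both filters, the pseudocount of 0.1, no fold limit, limma-voom and the marker covariate the number was also 5. It was 1 with an adjusted p under 0.01, where Dnmt1 (-0.50), Dnmt3a (-0.49), Uhrf1 (-1.37) and Mbd3 (-0.48) no longer passed. It was 3 with GC content and exon length adjusted, where Dnmt1 (-0.44) and Mbd3 (-0.29) no longer passed, and 4 when the replicate block was added, where Mbd3 (-0.29) did not. Tet2 then turned to -0.021 in both. Over the 6 fits without 1 library each, between 1 and 5 of them passed (lower 1 to 5, higher 0 to 1). The number was 1 without Taf4asKO replicate 2 or 3, and 3 without control replicate 1 or Taf4asKO replicate 1. In these fits Dnmt1 ranged from -0.59 to -0.39, Dnmt3a from -0.56 to -0.41, Uhrf1 from -1.66 to -1.06, Mbd3 from -0.55 to -0.41, Mbd1 from 0.26 to 0.50 and Tet2 from -0.093 to 0.14. Fewer samples reduce what such a fit can call, and other causes were not tested.

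Among all genes 2347 passed, 1246 lower and 1101 higher. At an adjusted p limit of 0.01 these counts were 876, 545 and 331. The higher genes numbered 1688 with the replicate block and 1718 with the block and the GC and length adjustment. Leaving out 1 library gave between 960 and 3121 (lower 595 to 1505, higher 341 to 1616). Of the related genes 35 passed, and 18 with an adjusted p under 0.01 (10 lower). Leaving out 1 library gave 17 to 38, 9 to 25 lower. Added to the reported fit, the block changed no call of the 9 genes, whereas with GC and length adjusted it restored that of Dnmt1. Upper-quartile scaling gave 1422 lower and 939 higher genes and moved the median of all genes to -0.034. Of 627 values of 33 other named genes, 563 kept direction and call, 53 lost the call, 5 gained it and 6 changed sign. The last were Usp7 (0.02), at -0.022 under upper-quartile scaling, -0.068 with GC and length adjustment with or without the block, and -0.025 to 0.044 when 1 library was left out (-0.0048 without control replicate 3), and Ogdh (-0.08), at -0.15 to 0.033 when 1 library was left out, the highest without control replicate 2. Uhrf1 rested on the fewest reads of the 9 genes, an estimated 43 to 153 per library, and no fit varied the depth.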
